A study of Homo sapiens with 28 samples.

Results

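The late step of a MYCN induction course was examined: 6 of the 28 arrays of the series, chosen by their titles as the 3 arrays of time 192 and the 3 arrays of time 48 in SK-N-AS cells that carry a doxycycline-inducible MYCN gene. The parent, SK-N-AS, is a long-established line from a human neuroblastoma. The 21 arrays of the MYCN line came from these cells in a time course with doxycycline added to the medium. There were 3 replicates at each of 7 times (labels 0, 4, 8, 24, 48, 96 and 192, with no unit of time stated). Time 0 is the start of that course. A mock line of the same parent, with the tet repressor vector, also received doxycycline and gave 1 array at each time. Both groups compared therefore share the inducible transgene and the drug and differ in the time of harvest. The labels do not say that replicates were separate cultures, so p-values measure the spread between these arrays, which may be technical. They also do not say whether either line is a single clone.

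MYCN is a transcription factor of the MYC family that binds DNA as a dimer with MAX at E-box sequences. In neuroblastoma, amplification of MYCN marks aggressive disease, and the protein is known for driving growth, ribosome production and the cell cycle. Pathways of stress and sterol control were read as well. NRF2, released from its inhibitor KEAP1, switches on genes for glutathione and haem metabolism. ATF4 responds to amino acid shortage and protein folding stress, and SREBP factors set the rate of cholesterol synthesis. The comparison asks which genes went on moving, or turned back, once MYCN had been high for some time.

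The 3′ to 5′ signal ratio of the GAPDH control, which is high in degraded RNA, was 1.07 to 1.11 at time 48. At time 192 it was 0.993 in replicate 1, the lowest of all 28 arrays, and 1.19 in replicate 3, the highest. Spiked hybridisation controls set replicate 3 and the mock line apart from replicates 1 and 2: bioD read 2231 to 2548 in the former and 1558 to 1945 in the latter. The mock array of time 192 had the highest median signal (20.2) and the highest ACTB 3′ to 5′ ratio (1.55) of all 28 arrays. Among markers of the adrenergic neuroblastoma cell, GATA3 read 245.5 to 458.1 in the 6 arrays, whereas TH and DBH were at or under 3.8 and PHOX2A at or under 12.4. In the mock line PHOX2A read 582.1 to 1133 and GATA3 751.9 to 879.8, whereas TH and DBH were at or under 8.7. HAND2 read 16.8 to 29.4 in the 6 arrays and 41 to 76.9 in the mock line. The leukocyte marker PTPRC read 5.8 to 18.5 at time 48, 1 to 4.4 at time 192 and 197.6 to 262.2 in the mock line. The lines therefore differed in PHOX2A, GATA3, HAND2 and PTPRC. The summed signal of 6 leukocyte markers was 17.5 to 21.7 at time 48 and 7.7 to 17.9 at time 192, and that of 5 Schwann cell markers was 4.2 to 9.4 and 6.4 to 10.9. The 5 endothelial markers summed to 92 to 139.8 and 51.3 to 115.9, nearly all of it PECAM1, and the 6 epithelial markers to 2262 to 3685 and 2543 to 2938, nearly all of it KRT18. The part of these marker levels in the results was not tested.

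MYCN itself remained far above its level in the mock line. From time 0 to time 24 it had risen by a log2 difference of 5.72. Its signal, in the scaled units of the arrays, was 4778, 4279.9 and 4654.5 at time 48 and 3272.6, 3064.9 and 3242.2 at time 192. All 3 later arrays lay below the earlier ones, but the log2 difference of -0.52 (standard error, SE, 0.17) did not pass the threshold (limma adjusted p = 0.165). The same probe set read 1.6 and 2.7 in the mock line at those times, which is background. MYC, the family member expressed in SK-N-AS, read 72.3, 34.2 and 51.8 and then 135.4, 38.3 and 31.4, so the groups overlapped (log2 difference 0.12, adjusted p = 0.951). MAX, the dimer partner, differed by -0.12 (adjusted p = 0.489).

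In the fit by time with no block, few genes passed the test between times 48 and 192. Of 11865 genes tested, 91 (0.767%) were called at an adjusted p under 0.05, of which 26 (0.219%) were higher and 65 (0.548%) were lower at time 192. The difference reached 2-fold in 36 of them, 8 higher and 28 lower. Before adjustment, 715 genes (6.03%) were higher and 845 (7.12%) lower at a p under 0.05. In all 91 called genes the 3 arrays of one time lay beyond the 3 of the other, which held for 15.5% of all genes tested. With the arrays set to equal medians, 6 genes were called higher and 50 lower, and 37 of the 91 remained called. Of the genes described below, BCAR3, CABLES1, CCR10, CRELD2, EBP, ERO1A, FDPS, GATA3, GNAI1, ID2, IDI1, ITGA2, ITGB5, LCORL, MAP4K4, NFKBIZ, NPC2, NPY, NQO1, PAM, PLXDC2, SDC2, SH3KBP1, TIMP2, TMTC1, TSPAN4, VDR and ZNF432 lost their call there. Fitted on the 6 arrays alone, limma called 0 genes, and 1052 had an unadjusted p under 0.05. The count was 49 without replicate 2 of time 48, 31 without its replicate 3 and 50 without replicate 1 of time 192, and rose to 151 and 169 without replicate 1 of time 48 and replicate 2 of time 192. Without replicate 1, 2 or 3 at all times it was 11, 26 and 64, and of the called genes described below CCDC80, FSTL1, GASK1B, LOXL1, PDE9A and PLAT kept their call in each of those 3 fits. In cultures measured in bulk, fewer cells expressing a gene and less RNA per cell cannot be told apart.

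The 2 largest increases among the called genes were in HMOX1 and SLC7A11, both part of the oxidative stress response. HMOX1, haem oxygenase, read 74.6, 75.9 and 39.7 at time 48 and 1436.4, 437.4 and 288.1 at time 192. All later arrays lay above all earlier ones, with replicate 1 of time 192 the highest, and the log2 difference was 3.22 (SE 0.54, limma adjusted p = 0.00633), a fold of 9.3. Without replicate 1 of time 192 the HMOX1 difference was 2.55 and still called, and without replicate 1 or 2 at all times it was 2.69 and 3.56 and not called (adjusted p = 0.144 and 0.13). SLC7A11, the cystine importer that feeds glutathione synthesis, rose from 74, 58.2 and 36.6 to 683.9, 253.1 and 130, again without overlap and again highest in replicate 1 (2.39, SE 0.44, adjusted p = 0.00871). NQO1, a quinone reductase and a standard NRF2 target, was already bright and had the smallest increase of the 26 called genes, from 2341.1, 2253.2 and 2093.5 to 2902.7, 2580.8 and 2778.7 (0.30, SE 0.06, adjusted p = 0.0143). TRIM16, a ubiquitin ligase linked to oxidative and proteotoxic stress that is in none of the gene lists, rose from 66.1, 67.4 and 78.4 to 267.6, 155.9 and 130.5 (1.32, SE 0.20, adjusted p = 0.00191). The call of SLC7A11 was lost without replicate 3 of time 48 (2.10), its value was 1.75 without replicate 1 of time 192, and that of NQO1 without replicate 2 or 3 of time 48 or replicate 1 of time 192 (0.31, 0.26 and 0.27).

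**Figure D1:**
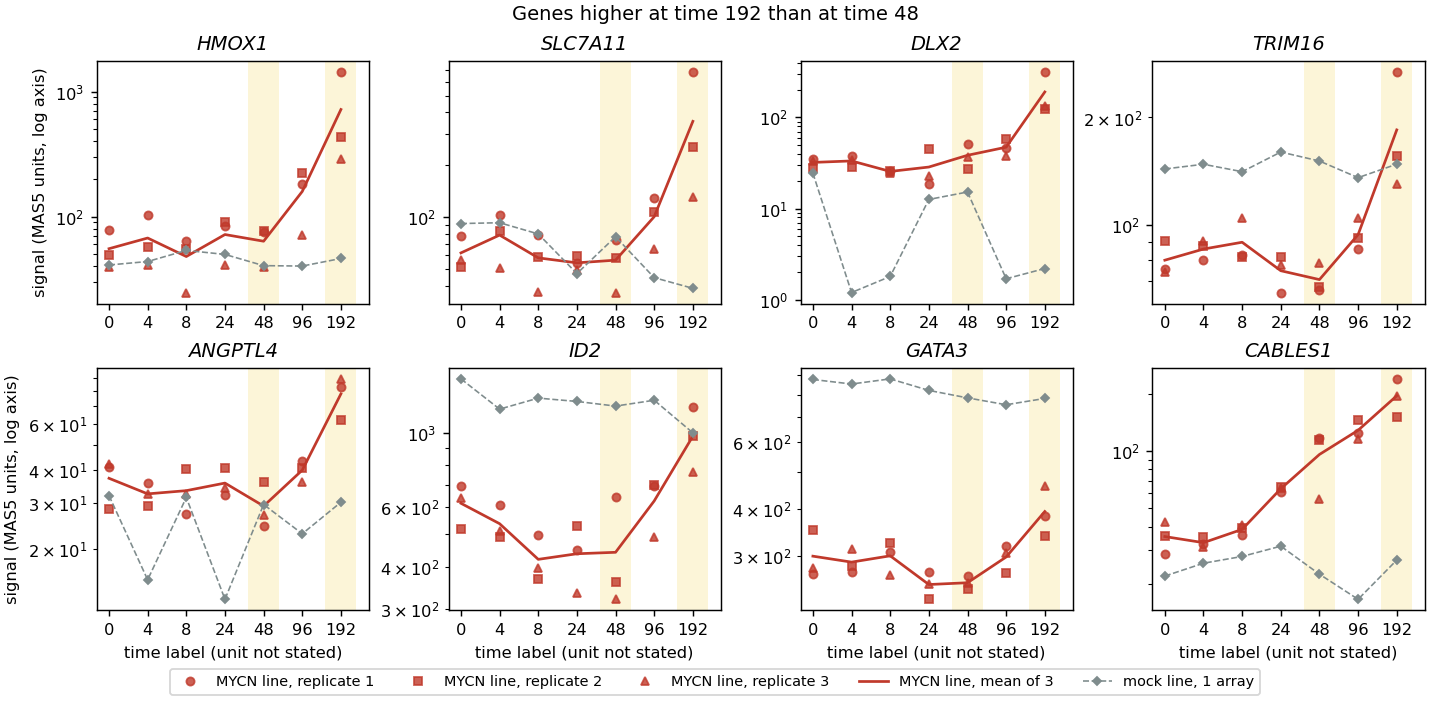
Signal (log axis) against the time label, in order but not to scale, for 8 genes called higher at time 192 than at time 48 (shaded). Red symbols are the 3 replicates of the MYCN line, the line joins their means, and grey diamonds are single mock arrays. HMOX1 and SLC7A11 have mean signals under 100 up to time 48 and are higher at time 192, whereas CABLES1 was already called higher at time 24 than at time 0.

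The NRF2 list holds target genes and also KEAP1 and NFE2L2, which are regulators. Of its 21 genes tested, 3 rose (HMOX1, SLC7A11 and NQO1), none was called lower, and 10, KEAP1 among them, were higher at an unadjusted p under 0.05. Their median log2 difference was 0.30, against -0.003 over all genes tested and -0.13 for the same genes in the mock line. Over all genes tested 0.219% were called higher and 6.03% were higher at an unadjusted p under 0.05. The NRF2 list and the other gene lists were chosen with earlier results of these data known. GCLM and GCLC, the 2 subunits of the enzyme that starts glutathione synthesis, differed by 0.79 and 0.40 without passing the threshold (adjusted p = 0.0577 and 0.0771). GCLM read 795.8, 683.9 and 539.6 at time 48 and 1332.1, 1156.5 and 983.9 at time 192, with no overlap. SRXN1, which repairs oxidised peroxiredoxins, read 305.1, 300.4 and 263.8 and then 611.2, 391.6 and 331.1 (0.57, adjusted p = 0.1). KEAP1, the inhibitor of NRF2, differed by 0.45 (adjusted p = 0.0731), and NFE2L2, which encodes NRF2 itself, by 0.05 (adjusted p = 0.855), with overlapping arrays. AKR1C1, an aldo-keto reductase, read 194.1, 53.9 and 20 at time 192 against 7.4, 18.1 and 22.1, a wide spread led by replicate 1 (2.05, adjusted p = 0.107). The redox enzymes TXN, TXNRD1, PRDX1 and TKT differed by 0.10, 0.08, -0.06 and 0.06, none past the threshold, so the differences lay in part of the list.

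Of 20 genes of the ATF4 and endoplasmic reticulum stress list, 2 rose (SLC7A11, which the NRF2 list also holds, and CRELD2), none was called lower, and the median was 0.31 against -0.05 in the mock line. The share called higher over all genes was 0.219%. CRELD2, a chaperone-like protein of the endoplasmic reticulum, read 194.5, 170.6 and 222.4 at time 48 and 374.9, 280.6 and 284 at time 192 (0.67, SE 0.14, adjusted p = 0.0209). Its call was lost without replicate 2 of time 48 (0.58) or replicate 1 of time 192 (0.54). SLC3A2, the heavy chain that partners SLC7A11 in the membrane, read 295, 222 and 199 and then 826.9, 320.7 and 335.3, without overlap and without passing the threshold (0.92, adjusted p = 0.118). ATF4 differed by 0.02 (adjusted p = 0.975). ERO1A, an oxidase of the same compartment outside the list, was called higher by its brightest probe set (0.36, adjusted p = 0.044), but differed by -0.07 by its brightest remaining probe set once those ending in _s_at or _x_at, whose probes may hit more than 1 transcript, had been dropped. The ERO1A difference was 0.12 with the mean of its probe sets, also not called, and the call ended with no filter on dim genes (0.36). It was also lost without any 1 of 5 arrays: replicates 2 and 3 of time 48 (0.33 and 0.33) and replicates 1, 2 and 3 of time 192 (0.41, 0.32 and 0.36).

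Promoter sequence from RefSeq (GRCh38.p14, 250 bases before to 50 after the annotated start) is shown for 4 of the genes described. They were picked because each holds a MYC E-box or an antioxidant element, the site class NRF2 binds. Capitals mark the matches, and each sequence is read 5′ to 3′ along the gene's own strand. INSIG1 (chr7:155297628-155297927, plus strand) holds the E-box CACGTG, and GCLM (chr1:93909381-93909680, minus strand) and CRELD2 (chr22:49918384-49918683, plus strand) the antioxidant element TGACNNNGC. DLX2 (chr2:172102851-172103150, minus strand) holds both.
INSIG1: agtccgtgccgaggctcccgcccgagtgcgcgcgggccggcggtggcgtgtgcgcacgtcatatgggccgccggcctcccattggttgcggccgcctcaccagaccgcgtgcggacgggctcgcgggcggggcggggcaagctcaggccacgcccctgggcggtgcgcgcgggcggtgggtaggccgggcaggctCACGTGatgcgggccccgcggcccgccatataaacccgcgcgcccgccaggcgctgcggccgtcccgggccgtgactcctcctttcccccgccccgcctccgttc
GCLM: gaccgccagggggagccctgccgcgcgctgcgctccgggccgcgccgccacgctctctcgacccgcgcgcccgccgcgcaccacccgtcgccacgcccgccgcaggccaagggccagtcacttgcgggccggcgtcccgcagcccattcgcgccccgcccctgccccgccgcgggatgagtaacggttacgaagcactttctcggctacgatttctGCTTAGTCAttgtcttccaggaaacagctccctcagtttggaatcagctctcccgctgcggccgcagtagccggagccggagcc
DLX2: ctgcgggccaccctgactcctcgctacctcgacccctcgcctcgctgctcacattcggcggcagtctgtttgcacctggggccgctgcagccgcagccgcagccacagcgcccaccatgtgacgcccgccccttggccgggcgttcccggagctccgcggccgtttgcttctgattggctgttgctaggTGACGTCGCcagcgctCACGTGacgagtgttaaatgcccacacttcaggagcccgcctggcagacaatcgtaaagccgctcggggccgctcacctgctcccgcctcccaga
CRELD2: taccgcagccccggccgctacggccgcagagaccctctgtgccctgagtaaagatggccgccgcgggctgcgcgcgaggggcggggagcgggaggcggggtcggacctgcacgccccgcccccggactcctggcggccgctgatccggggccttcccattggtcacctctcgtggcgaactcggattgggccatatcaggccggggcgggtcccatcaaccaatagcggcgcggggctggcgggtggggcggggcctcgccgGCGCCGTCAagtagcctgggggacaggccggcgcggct

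Both strands were searched, so GCLM and CRELD2 show the antioxidant element in its reverse form. The E-box was in 10.51% of the 9730 tested genes with a promoter, in 2 of 21 genes called higher (DLX2 and LCORL) and in 2 of 49 called lower (GNAI1 and INSIG1). The antioxidant element was in 15.62% of all promoters, in 4 of 21 called higher and in 5 of 49 called lower, and in 4 of 16 promoters of the NRF2 list (GCLM, ME1, PGD and TXNRD1). HMOX1, SLC7A11 and NQO1, the called genes of that list, were not among the matches. A promoter sequence was at hand for 16 of its 21 tested genes. The AP-1 element TGACTCA was in 2.89% of all promoters, in 0 called higher and in 1 called lower. The sterol element TCACNCCAC was in 1.07% of all promoters and in 1 of 19 of the cholesterol list (SREBF2). These matches describe the windows and were not tested as sites.

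DLX2, ID2 and GATA3, all regulators of transcription, were also called higher. DLX2, a homeobox factor of the developing forebrain and neural crest, read 51.6, 27.2 and 36.5 at time 48 and 314.2, 122.8 and 134.1 at time 192 (2.22, SE 0.33, adjusted p = 0.00208). The later arrays all lay above the earlier ones, and DLX2 was called without any 1 of the 6 arrays. ID2, an inhibitor of basic helix-loop-helix factors, read 643.5, 361 and 320.3 and then 1191.1, 974.5 and 763.5 (1.19, SE 0.23, adjusted p = 0.013). GATA3, a factor of the sympathoadrenal lineage and the only called gene of 10 noradrenergic markers tested, read 265.2, 245.5 and 254.4 and then 382.4, 339 and 458.1 (0.61, SE 0.12, adjusted p = 0.0176). The median of those 10 markers was -0.13, and 0.767% of all genes tested were called. The ID2 call was lost without replicate 2 or 3 of time 48 or replicate 1 of time 192 (1.08, 0.99 and 1.04), and the GATA3 call without replicate 2 or 3 of time 48 or replicate 1 or 3 of time 192 (0.59, 0.61, 0.63 and 0.50). GATA3 was not called with the mean of its probe sets (0.76) or without _s_at and _x_at probe sets (0.57).

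Several genes of secreted and signalling proteins were called higher too. ANGPTL4, an inhibitor of lipoprotein lipase, read 24.4, 35.9 and 27 at time 48 and 83.3, 62 and 89.2 at time 192 (1.43, SE 0.22, adjusted p = 0.00208), and was called without any 1 of the 6 arrays. MMP9, a gelatinase, was dim and rose from 23.9, 28.6 and 18.8 to 55.2, 39.5 and 105.2 (1.39, adjusted p = 0.0308), a call that held only without replicate 2 of time 192 among the 6 arrays (0.99 to 1.53 without the other 5) and not with no filter on dim genes (1.39). ITGA2, the collagen-binding integrin alpha chain, rose by 0.75 (adjusted p = 0.0181), whereas ITGB5, an integrin beta chain, fell by 0.45 (adjusted p = 0.026), the only 2 calls of 20 adhesion genes. The share called over all genes was 0.767%. The vitamin D receptor VDR rose by 0.89, the adaptor BCAR3 by 0.83, the kinase MAP4K4 by 0.60 and the adaptor SH3KBP1 by 0.73 (adjusted p = 0.0269, 0.0294, 0.00794 and 0.00633). SH3KBP1 was called without any 1 of the 6 arrays. LCORL and ZNF432, which encode nuclear proteins, rose by 0.82 and 0.80 (adjusted p = 0.0269 and 0.0156), calls that ended without replicate 3 of time 48 (0.87 and 0.69) or replicate 1 of time 192 (0.81 and 0.65), and for LCORL without replicate 2 of time 48 or replicate 3 of time 192 (0.75 and 0.78). Without replicate 3 of time 48 the calls of VDR (0.69), BCAR3 (0.60), MAP4K4 (0.50), ITGA2 (0.61) and ITGB5 (-0.44) were lost. Without replicate 1 of time 192 those of VDR (0.90), BCAR3 (0.75), ITGA2 (0.62) and ITGB5 (-0.31) were lost, and so, without replicate 2 of time 48, were those of BCAR3 (0.87), ITGA2 (0.75) and ITGB5 (-0.43), without replicate 3 of time 192 VDR (0.83), and without its replicate 2 BCAR3 (0.83). With the mean of a gene's probe sets, ITGA2 (0.99), ITGB5 (-0.43), LCORL (0.42), MAP4K4 (0.51), SH3KBP1 (0.67) and VDR (0.56) were not called, and without _s_at and _x_at probe sets neither were ITGB5 (-0.80) and MAP4K4 (0.41). ITGB5 was not called with quantile normalization either (-0.42).

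Genes of cholesterol synthesis and its control moved down. Of 21 cholesterol and fatty acid genes tested, 4 fell (FDPS, IDI1, INSIG1 and STARD4), none rose, 13 were lower at an unadjusted p under 0.05 and 20 had a negative difference. Their median was -0.52, against -0.003 over all genes and -0.17 for the same genes in the mock line. Over all genes tested 0.548% were called lower and 7.12% were lower at an unadjusted p under 0.05. INSIG1, the sterol sensor that holds SREBP in the endoplasmic reticulum and is itself an SREBP target, read 428.3, 562.9 and 961.9 at time 48 and 255.3, 239.9 and 283.9 at time 192 (-1.25, SE 0.27, adjusted p = 0.0319). STARD4, a sterol carrier, read 315.7, 373.2 and 465.8 and then 159.2, 215.1 and 230 (-0.93, SE 0.16, adjusted p = 0.00753). In both genes the arrays of the 2 times did not overlap, and replicate 3 was the highest at time 48.

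FDPS, which makes farnesyl diphosphate, read 1581.2, 1702.3 and 1883.7 and then 1127.5, 1261.2 and 1208.7 (-0.52, SE 0.10, adjusted p = 0.011). IDI1, the isomerase one step earlier, fell by 0.63 (adjusted p = 0.028) but differed by 0.26 (adjusted p = 0.784) without _s_at and _x_at probe sets and by -0.23 with the mean of its probe sets. EBP, a sterol isomerase outside the list, fell by 0.43 (adjusted p = 0.0413), and was not called with the mean of its probe sets (-0.16), with no filter (-0.43) or without _s_at and _x_at probe sets (-0.39). MSMO1, HMGCS1 and SQLE, other enzymes of the pathway, differed by -0.76, -0.75 and -0.56 and the desaturases SCD and FADS2 by -0.63 and -0.86, none past the threshold (adjusted p = 0.0959, 0.219, 0.304, 0.1 and 0.104). Fatty acid synthase FASN (-0.16) and ATP citrate lyase ACLY (0.003) showed the smallest differences of those named. Replicate 3 of time 48 mattered for all 4 list calls: without it the values were -0.92 for INSIG1, -0.79 for STARD4, -0.45 for FDPS and -0.51 for IDI1, and no call held, nor did that of EBP (-0.44). INSIG1 was also lost without replicate 2 of time 48 (-1.31) or replicates 1, 2 or 3 of time 192 (-1.24, -1.19 and -1.31), FDPS without replicate 1 of time 192 (-0.48), and IDI1 without replicate 2 of time 48 (-0.60) or replicate 1 of time 192 (-0.56). The EBP call was also lost without replicates 1 or 2 of time 48 (-0.45 and -0.40) or 1 or 3 of time 192 (-0.36 and -0.37).

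**Figure D2:**
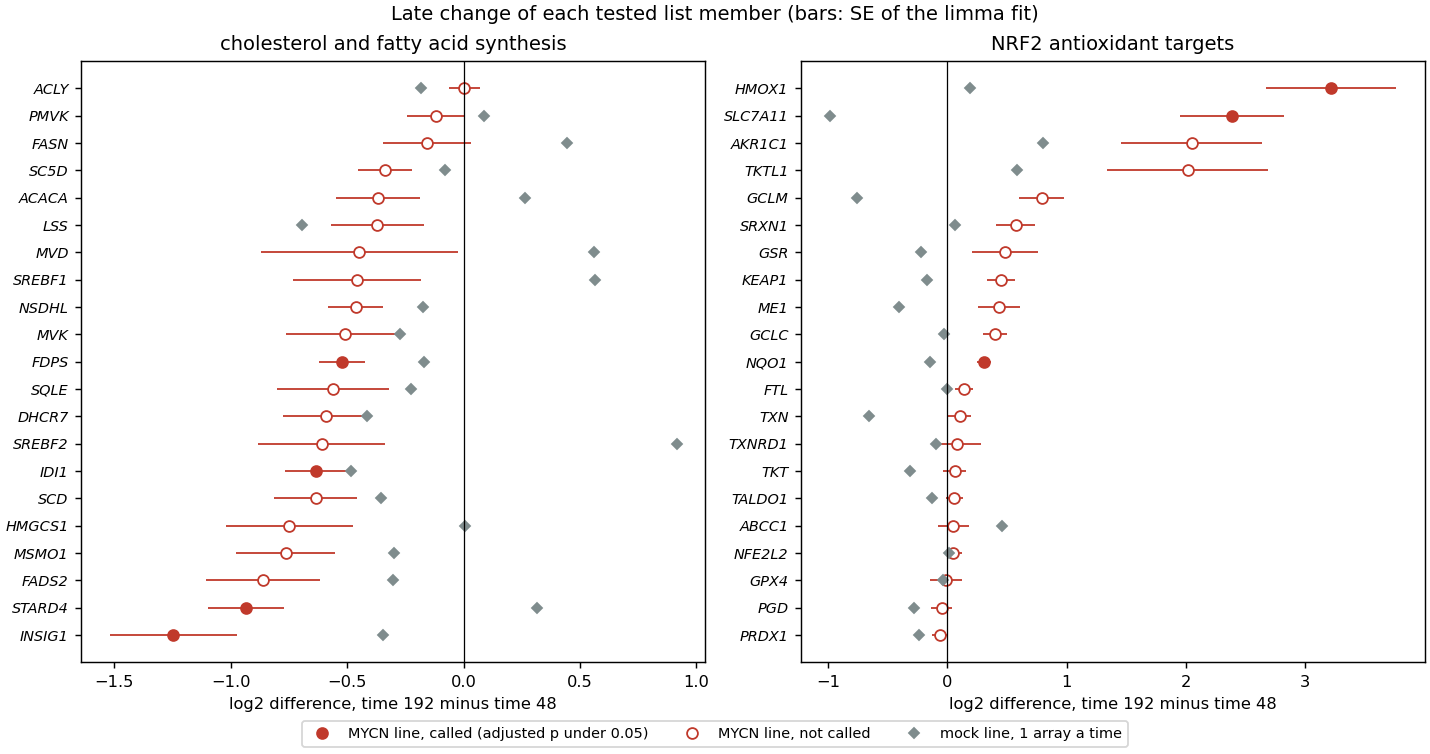
Log2 difference between times 192 and 48 for each tested member of the cholesterol and fatty acid list and of the NRF2 list. Circles are the MYCN line with the SE of the limma fit, filled where called, and grey diamonds are the mock line with 1 array a time. Of the 21 cholesterol genes 20 lie left of 0, and HMOX1 and SLC7A11 lie farthest to the right in the NRF2 list.

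The largest decrease among the called genes was in GASK1B, followed by GAS1RR, PYCARD and ELMO1, which are described with the other dim genes. GASK1B, a secretory pathway protein of the FAM20-like family, read 34.1, 57.3 and 79.3 at time 48 and 6.8, 4.4 and 5.2 at time 192 (-3.32, SE 0.30, adjusted p = 1.01e-05). The later values lay under the filter level of 12.8, where signals scatter widely on the log scale, as they did on average for 10 of the 65 lower genes. TSPAN8, a tetraspanin, read 54.7, 59 and 167.6 and then 24.2, 14.4 and 11.6 (-2.35, SE 0.35, adjusted p = 0.00191). PDGFRA, the platelet-derived growth factor receptor of mesenchymal cells, read 164.5, 207.4 and 355.3 and then 108.2, 63.3 and 35.6 (-1.88, SE 0.33, adjusted p = 0.00753), a call lost without replicate 3 of time 48 (-1.56). With the mean of its probe sets PDGFRA differed by -0.25 (adjusted p = 0.845), so the probe sets disagree. CD36, a fatty acid and thrombospondin receptor, fell from 157.3, 106.6 and 267.6 to 54.3, 79.3 and 38 (-1.59, adjusted p = 0.00674), and was not called with the mean of its probe sets (-1.23). With 16 added to every signal GASK1B and TSPAN8 differed by -1.72 and -1.62, and with the mean of probe sets GASK1B differed by -2.37, all still called.

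Matrix genes fell in part. DCN, the proteoglycan decorin, read 397.1, 377.3 and 1637.4 at time 48 and 125.4, 191.3 and 99.7 at time 192 (-2.23, SE 0.39, adjusted p = 0.00753), with replicate 3 of time 48 about 4 times as bright as its 2 partners. FN1, fibronectin, read 563.1, 551.3 and 1278.9 and then 263.5, 246 and 311.8 (-1.43, SE 0.27, adjusted p = 0.0124). These were the only calls of 24 collagen and matrix genes, of which 7 had a lower and 1 a higher signal at an unadjusted p under 0.05, with a median of -0.14 against 0.39 in the mock line. The shares over all genes were 0.548% called lower, and 7.12% lower and 6.03% higher at an unadjusted p under 0.05. COL3A1 and LUM, a fibrillar collagen and lumican, differed by -0.65 and -0.73 (adjusted p = 0.1 and 0.123), whereas COL6A3 differed by 2.63 (adjusted p = 0.0748). The DCN call held without any 1 of the 6 arrays, with -1.53 without replicate 3 of time 48, but not with the mean of its probe sets (-1.18, adjusted p = 0.14) or without _s_at and _x_at probe sets (-1.06, adjusted p = 0.438). FN1 was not called with the mean of its probe sets (-1.24) either, and its call was lost without replicate 3 of time 48 (-1.03) or replicate 1 of time 192 (-1.41).

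Genes outside that list that modify matrix or are secreted also fell. LOXL1, which crosslinks elastin, read 435.9, 446.5 and 549 and then 282.2, 183.6 and 200.8 (-1.12, SE 0.15, adjusted p = 0.000739). TGM2, transglutaminase, read 238.3, 344.7 and 349 and then 96.7, 138.2 and 106.4 (-1.44, SE 0.21, adjusted p = 0.00191). The secreted glycoproteins FSTL1 and CCDC80 fell by 0.97 and 0.89, and PLAT, tissue plasminogen activator, fell from 236.1, 298.3 and 308.6 to 109.6, 131.9 and 104.9 (-1.28, SE 0.12, adjusted p = 1.46e-05). These 5 genes were called without any 1 of the 6 arrays, but FSTL1 was not called with the mean of its probe sets (-0.54, adjusted p = 0.533), nor CCDC80 without _s_at and _x_at probe sets (-0.88). The proteoglycans SDC2 and GPC3 fell by 1.14 and 1.20 (adjusted p = 0.00753 and 0.0319), IGFBP2, which binds insulin-like growth factors, by 0.97 (adjusted p = 0.00753), and TIMP2, a metalloprotease inhibitor, by 0.38 (adjusted p = 0.015). Without replicate 3 of time 48 the calls of GPC3 (-0.87), IGFBP2 (-0.87) and TIMP2 (-0.35) were lost, as were those of SDC2 (-1.06), GPC3 (-1.28) and TIMP2 (-0.37) without its replicate 2, GPC3 (-1.08) and TIMP2 (-0.31) without replicate 1 of time 192 and GPC3 (-1.11) without its replicate 3. With the mean of probe sets GPC3 (-0.54) and TIMP2 (-0.31) were not called.

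**Figure D3:**
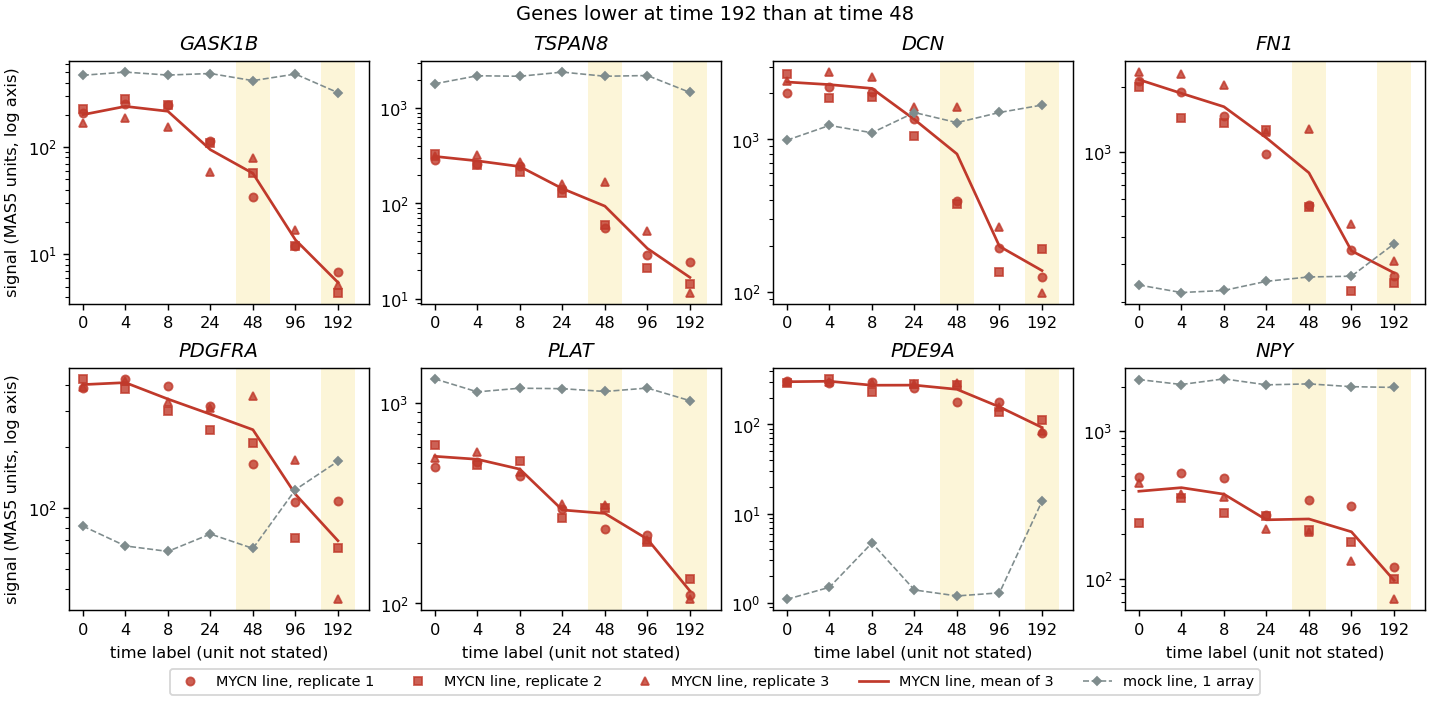
Signal (log axis) against the time label, in order but not to scale, for 8 genes called lower at time 192 than at time 48 (shaded), with symbols for replicates, means and mock arrays as for the risers. The mean of TSPAN8 declines from time 0 onward and that of GASK1B from time 4 onward. Replicate 3 of time 48 stands above its partners for DCN and FN1.

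Several other called genes have roles in signalling or immunity, most at low signal. PDE9A, which degrades cyclic GMP, was bright enough to be measured at both times, at 177.1, 275.7 and 289.5 and then 80.5, 112.6 and 84.5 (-1.40, SE 0.16, adjusted p = 0.000195). RGS2, a brake on G protein signalling, read 3211.8, 2274.1 and 2903.5 and then 1347, 1831.5 and 1256.1 (-0.92, SE 0.15, adjusted p = 0.00382). PYCARD, the inflammasome adaptor, read 21.1, 26.3 and 30.9 and then 3, 10.7 and 1.3 (-2.89), and CXCL16, a chemokine, 19.6, 37.2 and 34.8 and then 6.1, 5 and 10.3 (-2.11). These 4 genes were called without any 1 of the 6 arrays, but PDE9A was not called with the mean of its probe sets (-1.10). PYCARD differed by -3.71 without replicate 2 and -2.19 without replicate 3 of time 192, and with 16 added to every signal PYCARD and CXCL16 differed by -1.02 and -0.99 and remained called. The antisense gene GAS1RR (-2.90), PLXDC2 (-2.49), the neuronal transcription factor NPAS3 (-2.30), the chemokine receptor CCR10 (-2.22) and the microtubule-binding MAP7 (-1.87) were dim too, with time 192 signals of 1 to 12.1. Leaving out replicate 3 of time 48 ended the calls of all 5 (-2.85, -2.69, -1.79, -2.09 and -1.35), and replicate 2 of time 48 those of GAS1RR (-2.97), PLXDC2 (-2.52) and CCR10 (-2.11). Leaving out replicate 3 of time 192 ended those of PLXDC2 (-1.94), NPAS3 (-2.28) and CCR10 (-1.34), its replicate 1 that of NPAS3 (-2.14), and its replicate 2 or replicate 1 of time 48 that of PLXDC2 (-2.15 and -2.24). With 16 added to every signal PLXDC2 (-0.65), NPAS3 (-1.26), CCR10 (-0.64) and MAP7 (-0.87) were not called and GAS1RR was (-1.10), and with the mean of probe sets GAS1RR (-1.89), NPAS3 (-1.62), CCR10 (-2.21) and MAP7 (-1.35) were not. The CCR10 call also ended with quantile normalization (-2.24), with no filter (-2.21) and without _s_at and _x_at probe sets (-2.21). GAS1RR differed by -3.68 without replicate 2 and -1.89 without replicate 3 of time 192, PLXDC2 by -3.37 and CCR10 by -2.83 without its replicate 1. ELMO1, which helps activate Rac in cell migration, read 10.2, 15.3 and 12.1 at time 48 and 1.1, 0.9 and 5.2 at time 192 (-2.84, adjusted p = 0.00794), close to background throughout. It was not called without replicate 2 of time 48 (-2.69) or replicate 1 of time 192 (-2.51), and differed by -3.63 without replicate 3 of time 192 and by -0.64 with 16 added.

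Of the neuropeptide and secretory granule genes, PAM and NPY were called lower and none was called higher. PAM, which amidates peptide hormones, read 4113.6, 3864.8 and 4103.1 at time 48 and 2501.5, 3183.5 and 2676.9 at time 192 (-0.54, SE 0.07, adjusted p = 0.000345), a call that held without any 1 of the 6 arrays. NPY, neuropeptide Y, read 341.8, 213.5 and 209.2 and then 120.3, 100.5 and 72.7 (-1.37, SE 0.31, adjusted p = 0.0355), but lost its call without any 1 of the 6 (-1.54 to -1.14). These were the 2 calls of 16 genes tested, with 7 differences below and 3 above 0 at an unadjusted p under 0.05 and a median of -0.53 against 0.14 in the mock line. The shares over all genes were 0.548% called lower, and 7.12% lower and 6.03% higher at an unadjusted p under 0.05. TAC1, the substance P precursor, read 131.8, 93.3 and 928.2 and then 83.9, 30.7 and 18.4 (-2.64, adjusted p = 0.0741), and the processing enzyme CPE differed by -0.64 (adjusted p = 0.142). GAL, the galanin precursor, differed by 0.54 in the other direction (adjusted p = 0.068).

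The lists for growth and division, for which MYCN is known, held no call, which is near the share of 0.767% called over all genes. None of 24 ribosome biogenesis, 22 nucleotide and one-carbon, 25 DNA replication, 26 mitosis, 24 glycolysis and hypoxia, or 16 p53 target genes tested was called by limma, and 3, 4, 3, 6, 5 and 2 of them had an unadjusted p under 0.05, beside 6.03% higher and 7.12% lower over all genes. Medians were 0.08, 0.03, 0.01, -0.13, 0.001 and 0.002. In the mitosis list 24 of 26 genes had a negative difference, led by PRC1, a spindle midzone protein (-0.25, adjusted p = 0.0807), and TOP2A, topoisomerase (-0.21, adjusted p = 0.145). Of 14 complement genes none was called and 6 were lower at an unadjusted p under 0.05, with a median of -0.45 against 0.64 in the mock line, and C1R, a classical pathway protease, differed by -1.04 (adjusted p = 0.0823). The MYC network, interferon and MHC class I, immediate early, neuronal cytoskeleton and apoptosis lists also held no call, with 2 of 10, 8 of 27, 7 of 22, 8 of 25 and 0 of 14 genes at an unadjusted p under 0.05. The lysosome list held 1 lower gene, NPC2, a cholesterol-binding protein (-0.44, adjusted p = 0.00753), which was lost without replicate 2 or 3 of time 48 (-0.40 and -0.42). The growth factor response list held 1 higher gene, ID2, and the mesenchymal list 1 lower gene, FN1.

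**Figure D4:**
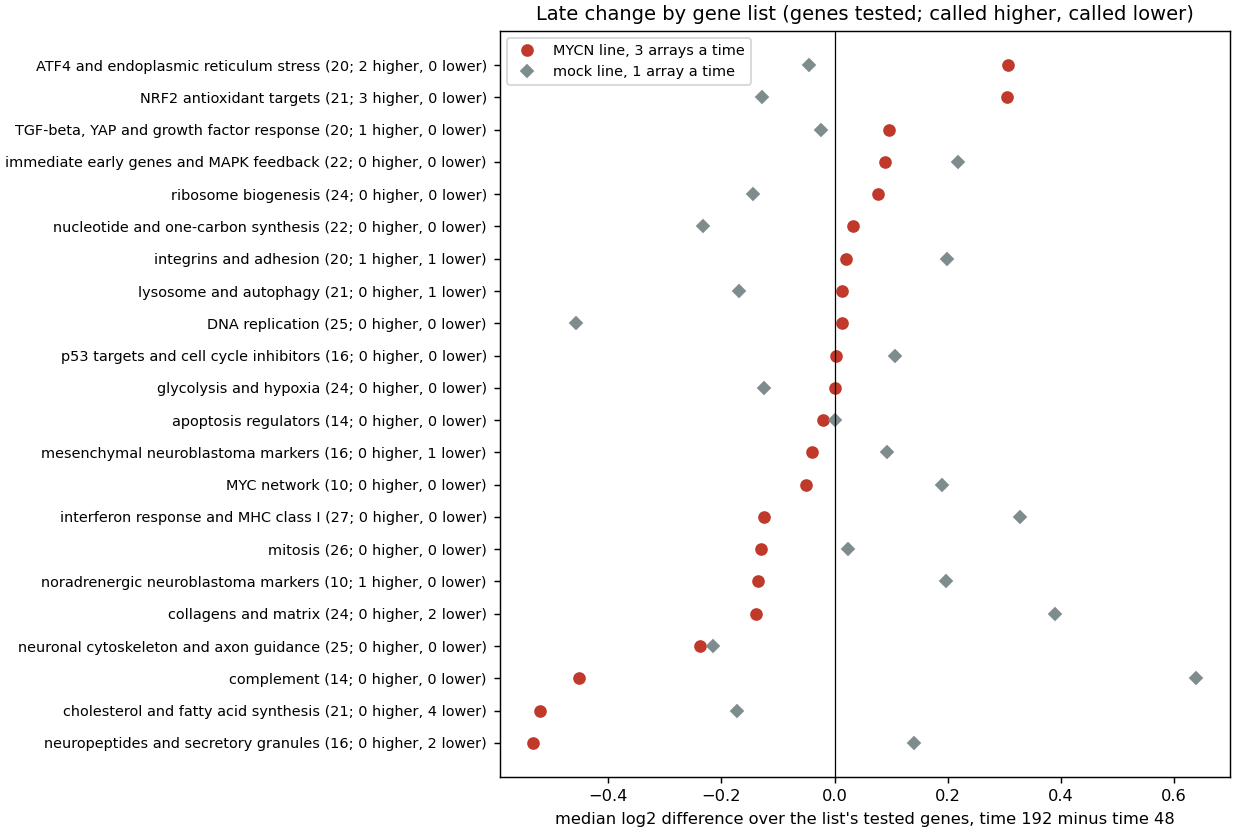
Median log2 difference between times 192 and 48 over the tested genes of each of 22 lists, with red circles for the MYCN line and grey diamonds for the mock line, and the numbers tested and called in the labels. The stress lists lie at about 0.3 and the cholesterol and neuropeptide lists at about -0.5 in the MYCN line.

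To see whether late changes continued earlier ones, the late difference was set beside the change from time 0 to time 24, which uses none of the same arrays. At time 24, 852 genes (7.18%) were called against time 0, and 842 of them were not called between times 48 and 192. Another 81 genes were called late but not early, HMOX1 (early difference 0.35), SLC7A11 (-0.17) and DLX2 (-0.27) among them. The 10 genes called in both intervals comprised 8 that kept moving the same way and 2 that turned back. The early difference was negative in 53 of the 65 late-falling genes, with a median of -0.21 against -0.03 over all genes, of which 53.7% were negative. Among the 26 late-rising genes 8 had a positive early difference, with a median of -0.10.

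The genes that kept moving were GASK1B, PLAT, STARD4, CCDC80, TMTC1, NFKBIZ and GNAI1, which fell in both intervals, and CABLES1, which rose in both. PLAT fell by 0.88 from time 0 to time 24 (adjusted p = 0.0002) and then by 1.28 from time 48 to time 192. The early and late log2 differences were -1.13 and -3.32 for GASK1B and -0.62 and -0.89 for CCDC80. They were -0.56 and -0.85 for TMTC1, a mannosyltransferase of the endoplasmic reticulum, and -0.93 and -0.84 for NFKBIZ, a nuclear regulator of NF-kappaB. For GNAI1, a G protein subunit, they were -0.43 and -0.54 (late adjusted p = 0.0495). CABLES1, a cyclin-dependent kinase binding protein, rose by 0.85 and then 1.08, reaching 239.7, 151.4 and 194.8 at time 192 from 117.3, 114.7 and 55.9 at time 48. Late calls were lost without replicate 3 of time 48 for TMTC1 (-0.81), CABLES1 (0.73) and NFKBIZ (-0.83), without replicate 1 of time 192 for CABLES1 (0.92) and NFKBIZ (-0.73), without replicate 3 of time 192 for CABLES1 (1.07) and NFKBIZ (-0.80), and without replicate 2 of time 48 for NFKBIZ (-0.79). The GNAI1 call was lost without replicate 1 or 3 of time 48 (-0.56 and -0.42) or replicate 1 or 3 of time 192 (-0.51 and -0.51), and that of STARD4 without replicate 3 of time 48 (-0.79). GNAI1 was also not called with quantile normalization (-0.53), with 16 added (-0.52), with no filter (-0.54) or without _s_at and _x_at probe sets (-0.54), and NFKBIZ not with the mean of its probe sets (-0.86).

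CRELD2 and TSPAN4 turned back with the deposited scaling, but neither was called late with equal array medians, where no gene did. CRELD2 fell by 0.97 to time 24 (adjusted p = 0.00021), reached a mean signal of 196 at time 48 and stood at 313 at time 192, still below the 484 of time 0. TSPAN4, a tetraspanin, rose by 0.31 to time 24 (adjusted p = 0.0411) and fell from 625.6, 655.7 and 586.5 at time 48 to 417.2, 442.5 and 454.9 at time 192 (-0.51, adjusted p = 0.00753), a call lost without replicate 2 of time 48 (-0.47). The count of genes called in both intervals was 3 with equal array medians, all of which kept moving, 16 with quantile normalization and 25 and 24 without replicate 1 of time 48 and replicate 2 of time 192.

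The called genes were also read in the change from time 24 to time 96, which shares no array with the late difference and was added after the data had been seen. It overlaps the late interval in time, and its calls share the same estimate of each gene's spread. Over all genes, 32 (0.27%) were called higher and 74 (0.624%) lower in that interval. Of the 65 late-falling genes 63 had a negative difference and 16 were called lower, with a median of -0.48 against -0.01 over all genes. Of the 26 late-rising genes 24 had a positive difference and 8 were called higher, with a median of 0.50, and none of the 91 was called in the opposite direction. DCN fell by 2.79 and FN1 by 1.79 from time 24 to time 96 (adjusted p = 0.002 and 0.0043), whereas HMOX1 differed by 1.07 (adjusted p = 0.4) and SLC7A11 by 0.83 (adjusted p = 0.42). ANGPTL4 differed by 0.17 (adjusted p = 0.8).

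**Figure D5:**
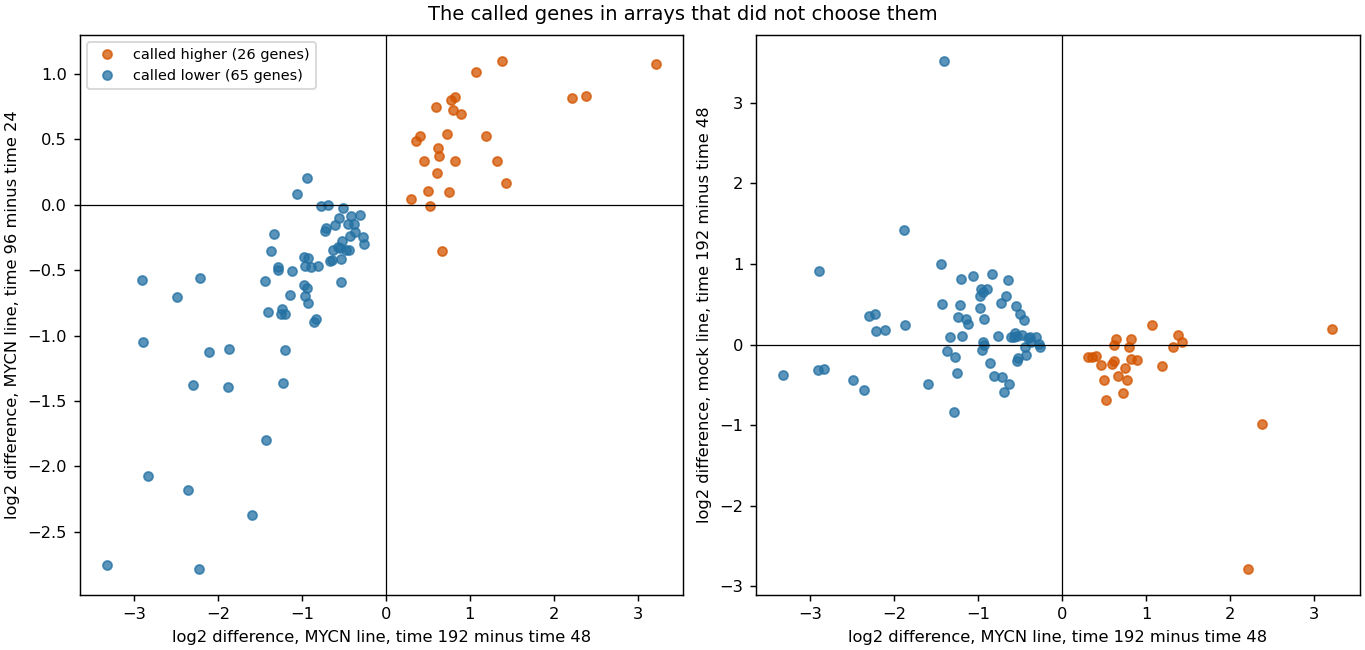
Log2 difference between times 192 and 48 in the MYCN line for the 26 genes called higher (orange) and the 65 called lower (blue), against the difference between times 96 and 24 in the same line (left) and between times 192 and 48 in the mock line (right). On the left 63 of 65 blue points lie below 0 and 24 of 26 orange points above it. On the right 22 of 65 blue points lie below 0 and 6 of 26 orange points above it.

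In the mock line most of the same genes did not share the direction. From time 48 to time 192, 22 of the 65 genes that fell in the MYCN line had a negative mock difference, with a median of 0.11, and 6 of the 26 that rose had a positive one, with a median of -0.19. Over all genes 46.9% were negative. HMOX1 read 40.4 and 46.1 in the mock line, and PLAT 1138 and 1024. Of the 4 called cholesterol genes, FDPS, IDI1 and INSIG1 differed by -0.17, -0.48 and -0.35 in the mock line, and STARD4 by 0.32. The difference in change between the lines, tested as an interaction with the lone mock arrays assumed to vary like the MYCN line, was called for 178 genes (1.5%), 102 positive and 76 negative, and 1847 had an unadjusted p under 0.05. Of these 178, 24 were also called late in the MYCN line, 5 higher and 19 lower. The 178 held 0 of 21 cholesterol genes, 0 of 20 genes of the ATF4 list and 1 of 21 genes of the NRF2 list. HMOX1 and SLC7A11 did not pass (limma interaction adjusted p = 0.182 and 0.0632). In 158 of the 178 the mock line moved more than the MYCN line, with median absolute differences of 0.80 and 0.24, and they rest on the mock array of time 192 with its high median signal and ACTB ratio. The part of those array properties was not tested. The count was 33 with equal array medians, 395 with quantile normalization and 106, 100 and 299 without replicates 2, 3 and 1 of time 48.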

How the data were processed

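RNA of 21 arrays of the MYCN line and 7 of the mock line was measured on single-colour Affymetrix arrays. Per the labels' protocols, total RNA was isolated with Trizol, purified on RNeasy columns and labelled in a single cycle. The deposited values are linear intensity values, with each array giving 1 value for a probe set. They were made with MAS5 and GCOS, per the submitters' processing notes, with versions not given in the sources used here. In all arrays the mean without the top and bottom 2% of values was 100.0, so no further scaling was applied. Array medians were 12.9 to 20.2. The number of arrays limits the precision.

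Of 54675 probe sets, 62 were controls, 41091 named 1 gene in the platform annotation, 1801 several and 11721 none. Before log2, 91 values that were not positive became 0.1. Each of 19775 genes was read by its brightest single-gene probe set, and 11865 genes passed a filter at the 40th percentile (mean log2 of 3.68, a signal of 12.8). Differences were fitted with limma 3.58.1 in R 4.3.3 (lmFit, eBayes with trend) over all 21 arrays of the line (14 residual degrees of freedom), two-sided, with Benjamini-Hochberg adjustment over all genes tested, and the scripts were tested on simulated data. The line difference was an interaction over 28 arrays. Promoters came from RefSeq for 9730 tested genes.

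Members and gene lists were chosen with earlier results of these data known. Named genes were MYCN, MYC and MAX, the 12 largest increases and 12 largest decreases among called genes without overlap between arrays whose higher group mean reached the filter level, in each list the 3 genes with the smallest p-value, up to 5 genes a direction that kept moving or turned back, and the 5 most extreme line differences each way. Others were named after their values were seen: ELMO1, INSIG1, EBP, MSMO1, HMGCS1, SQLE, SCD, FADS2, FASN, ACLY, GCLM, GCLC, SRXN1, KEAP1, NFE2L2, AKR1C1, TXN, TXNRD1, PRDX1, TKT, ATF4, ERO1A, MAP4K4, SH3KBP1, TGM2, LOXL1, FSTL1, SDC2, GPC3, IGFBP2, TIMP2, RGS2, NFKBIZ, GNAI1, LUM, COL3A1, TAC1 and CPE. Alternatives were the replicate number or the control split as a block, other scaling, offset, filter and probe set choices, and arrays left out.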

Additional observations from a re-analysis of the deposited data

Results flagged for a closer look

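The change from time 48 to time 192 differed between the MYCN line and the mock line for 178.0 genes by the limma interaction, and 27 of these genes are among those selected for naming. The values below are log2 differences, MYCN line minus mock line, and each rests on 1 mock array at either time. In 158 of the 178 the mock line moved more than the MYCN line, and 24 were also called late in the MYCN line. In that line LOC100506639 differed by -0.01, HLA-B by -0.24, BST2 by -0.42, C17orf67 by -0.43, NRP1 by 0.36 and HSF2BP by 0.40, none of them called.

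Negative values, where the change in the MYCN line lay below that in the mock line, were -4.93 for PDE9A, -4.74 for the succinate receptor SUCNR1, -4.43 for the chemerin receptor CMKLR1, -4.10 for C17orf67, -3.65 for LOC100506639, -3.30 for PDGFRA, -2.95 for GASK1B and -2.45 for TGM2. PDE9A read 1.2 and 13.8 in the mock line, so its background level there makes the size uncertain, as do the mock levels of 4.4 for SUCNR1, 4.1 for CMKLR1, 4.5 for C17orf67 and 2.1 for LOC100506639 at time 48. Interferon-linked and inflammatory genes followed, with -2.33 for BST2, -1.88 for ICAM1, -1.72 for NFKBIZ and -1.21 for HLA-B, which read 996.7 and 1950.5 in the mock line. Matrix and membrane genes gave -1.65 for FSTL1, -1.58 for CCDC80, -1.58 for IGFBP2, -1.37 for LOXL1, -1.13 for PLAT, -0.89 for TSPAN4 and -0.76 for ITGB5.

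Positive values were 5.01 for DLX2, 4.19 for the metallothionein gene MT1HL1, 3.86 for RBM47, 3.49 for FBLN2, 3.43 for HSF2BP, 1.75 for the co-receptor NRP1, 1.55 for GCLM and 1.33 for SH3KBP1. At time 192 the mock line read 2.2 for DLX2, 1.9 for RBM47, 5.7 for FBLN2 and 2.2 for HSF2BP, all under the filter level of 12.8.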

How the results depend on the processing

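Replicate numbers were not taken to pair the arrays: deviations from the group means of times 48 and 192 correlated at 0.27, 0.053 and 0.316 for replicates 1, 2 and 3, and replicate 2 of time 192 correlated better (0.105) with replicate 1 of time 48 than with its own number. Unlike numbers otherwise correlated at -0.344 to -0.012, below each pair of the same number. Whether replicates share an effect was not tested. With the replicate block, 530 genes were called late, including the 91, and 115 both early and late; with the hybridisation control split as a block the counts were 410 and 81. With the replicate block the cholesterol list went from 4 to 13 lower calls, MSMO1, HMGCS1, SQLE, SCD and FADS2 among them (limma adjusted p = 0.029, 0.042, 0.014, 0.0064 and 0.029), and the NRF2 list from 3 to 8 higher calls. Over all genes that block called 202 higher and 328 lower. MYCN was then called lower (limma adjusted p = 0.0465). So were 2 DNA replication, 1 mitosis and 2 glycolysis and hypoxia genes, and 1 ribosome biogenesis and 1 nucleotide and one-carbon gene were called higher. The 6 arrays alone gave 0 late calls (1052 at an unadjusted p under 0.05 in limma). Equal array medians gave 56 late calls, 3 in both intervals and 33 line differences, and quantile normalization 16 and 395 for the last pair. The mean of probe sets gave 4 in both intervals and 114 line differences, leaving out _s_at and _x_at probe sets 4 in both intervals, and no filter 117 line differences. Leaving out arrays gave 11 to 169 late calls, 1 to 25 in both intervals and 100 to 299 line differences. Whole replicates left out gave 11, 26 and 64 late calls without replicate 1, 2 and 3, and single arrays left out gave 31 to 169. The cause of these changes was not tested.

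Of 60 called genes selected for naming, 20 kept their call without each of the 6 arrays. Signs turned in 25 single-gene values, ERO1A (-0.0656) and IDI1 (0.26) without _s_at and _x_at probe sets among them, and otherwise in genes that were not called: MAX (0.0291 with the mean of probe sets, 0.16 without _s_at and _x_at), ACLY (-0.0203 with equal medians and -0.0230 with the mean of probe sets) and ATF4 (-0.00839 with equal medians). With arrays left out, ranges crossed 0 for ACLY (-0.0508 to 0.0498), ATF4 (-0.12 to 0.13), FASN (-0.30 to 0.0276), LOC100506639 (-0.23 to 0.18), MYC (-0.54 to 0.53), NFE2L2 (-0.0116 to 0.14) and XIAP (-0.0796 to 0.48).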
